A study of Arabidopsis thaliana with 9 samples.

Results

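Transcript levels after a single cold cycle were compared with those of unstressed plants in wild-type (WT) Arabidopsis thaliana, a small crucifer used as a model plant. Stems and leaves of soil-grown seedlings, 2 weeks old per the labels, were sequenced. The cold-once group (3 libraries, day 1) was given 6 h of 4 °C followed by 18 h of recovery at room temperature. The control group (3 libraries, day 0) was kept at room temperature or taken before the stress. These 6 libraries of the 9 in the series form the comparison, and 17391 of the 25320 genes in the table, those with at least 1 FPKM (fragments scaled by gene length and library size) in at least 3 of the 6 libraries, were tested. The 3 remaining libraries (day 4) came from plants that had gone through 4 such cycles, and they are used only where named. A further 6 h at 0 °C followed the cycles in the submitters' description, and whether sampling came before or after it is not given in the sources used here. The cycle, the 0 °C step, the added day of age and any difference in time of day cannot be told apart in this comparison. The series concerns histone H3K4 methylation in the memory of cold, and this comparison covers its single-cycle arm.

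Cold acclimation is the process by which a temperate plant exposed to low, non-freezing temperature becomes more tolerant of freezing. The best known arm runs through the CBF transcription factors and the COR genes they switch on. Low temperature also slows enzymes, translation and growth while light capture continues, so chloroplast, ribosome, sugar, membrane and cell wall genes are regular parts of the cold response in leaves. The account that follows is about those other functions and gene families, leaving the CBF and COR genes aside.

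Of the 17391 genes tested, 9764 (56.1%) were called at an adjusted p under 0.05 by limma's moderated test with Benjamini-Hochberg adjustment. They comprised 3493 rises (20.1% of genes tested) and 6271 falls (36.1%) in cold once. At least 2-fold rises numbered 938 (5.39%) and at least 2-fold falls 1724 (9.91%). All library pairs within a group correlated at 0.968 to 0.989 on the log2(FPKM + 1) scale across genes, and pairs between groups at 0.865 to 0.894. The median gene lay at -0.17 on the log2 scale in cold once relative to control, and median-of-ratios scaling, which centres the typical gene, moved this to -0.01. Under that scaling 9403 genes were called (54.1%): 4788 rose (27.5%) and 4615 fell (26.5%), and quantile normalization called 9308 (53.5%), so the balance of rises (35.8% of calls) and falls (64.2%) depended on scaling. All 3493 rises remained rises under median-of-ratios scaling, and 4615 of the 6271 falls remained falls. That scaling moved log2 changes upward, which favours keeping rises and losing falls. These counts therefore do not compare how robust rises and falls are. Depth implied by the values was 20.18 to 20.48 M reads in cold-once libraries and 20.05 to 21.49 M in control libraries. Leaf markers were detected in every library, and the summed level of 7 leaf genes was 31143 to 35001 FPKM in cold once and 21070 to 23278 FPKM in control, with none at 0. The 6 seed storage markers all failed the filter, and 14 flower markers summed to 13.8 to 29.7 FPKM in cold once and 25.8 to 60.3 FPKM in control. A fit with the flower marker score as a covariate gave 5445 calls. In bulk tissue, fewer cells of a type and less RNA per cell cannot be told apart. Throughout, log2 changes are cold once minus control on the log2(FPKM + 1) scale with their standard errors (SE), levels are mean FPKM ± SD, and n = 3 libraries per group. The counts of every gene list below are to be read beside the shares over all genes tested, 20.1% higher and 36.1% lower. Differences of lists from these shares were not tested. The labels do not say whether the 3 samples of a group were separate cultures, and the p-values therefore reflect only how far these samples differ, which may be technical.

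The steepest rise was that of RVE2 (AT5G37260, chromosome 5, 14751344 to 14753088), one of the MYB-like transcription factors close to the morning clock genes. RVE2 had 511, 536 and 574 FPKM in the cold-once libraries, against 1.71, 2.09 and 1.45 FPKM in control libraries, a log2 change of 7.63 ± 0.11 (adjusted p = 5.4e-07). AT4G18422 (chromosome 4, 10176150 to 10176638), which encodes an uncharacterised protein, had 245, 307 and 231 FPKM in cold once, against 0.761, 0.306 and 0.87 FPKM in control. A Dof-type zinc finger gene, AT1G26790 (chromosome 1, 9273684 to 9275193), had 78.2, 130.4 and 117 FPKM in cold once and 0, 0 and 0.171 FPKM in control. AT4G18422 and AT1G26790 were under 1 FPKM in every control library and passed the filter through cold once alone, which favours a difference, so their values are given with no test, as are those of other genes said to have passed through 1 group. In each of these 3 genes the lowest cold-once library stood far above the highest control library, which follows from their choice as the largest rises with no overlap. No overlap between the groups was found in 65.1% of all genes tested. At the other end, CCL (AT3G26740, chromosome 3, 9827682 to 9828917), a clock-controlled gene of unknown function, had 47.1, 48.6 and 43.03 FPKM in cold once, against 1204, 1480.3 and 1352 FPKM in control (-4.83 ± 0.11, adjusted p = 3.2e-06). The methyltransferase gene AT1G15125 (chromosome 1, 5204312 to 5205964) had 26.5, 5.03 and 56.6 FPKM in cold once and 311, 576 and 466 FPKM in control, with a wide spread among cold-once libraries (-4.37 ± 0.75, adjusted p = 0.0027). AT1G15125 overlaps another annotated gene.

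The 250 bases before the annotated start of these 5 genes and of the 2 cytosolic ribosomal protein genes that rose most are shown because the motifs of cold, clock and ribosomal promoters differ among them. They were read from TAIR10.1, 5′ to 3′ on the gene's strand. Capitals mark the evening element AAAATATCT, the CCGAC core, the G-box CACGTG, the telo-box AAACCCTA and the site II element TGGGCC, on either strand. A match is a description of letters only.
RVE2 (chr5:14753089-14753338, minus strand): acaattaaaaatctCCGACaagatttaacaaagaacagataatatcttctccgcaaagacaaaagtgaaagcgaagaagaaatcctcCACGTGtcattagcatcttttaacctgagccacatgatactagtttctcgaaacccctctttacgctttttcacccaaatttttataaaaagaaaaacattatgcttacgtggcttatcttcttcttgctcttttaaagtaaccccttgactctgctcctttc
AT4G18422 (chr4:10176639-10176888, minus strand): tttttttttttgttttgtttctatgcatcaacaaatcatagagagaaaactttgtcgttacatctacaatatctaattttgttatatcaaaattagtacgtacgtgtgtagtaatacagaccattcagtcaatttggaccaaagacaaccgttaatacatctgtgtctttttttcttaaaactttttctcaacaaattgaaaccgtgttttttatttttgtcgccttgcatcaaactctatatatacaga
AT1G26790 (chr1:9275194-9275443, minus strand): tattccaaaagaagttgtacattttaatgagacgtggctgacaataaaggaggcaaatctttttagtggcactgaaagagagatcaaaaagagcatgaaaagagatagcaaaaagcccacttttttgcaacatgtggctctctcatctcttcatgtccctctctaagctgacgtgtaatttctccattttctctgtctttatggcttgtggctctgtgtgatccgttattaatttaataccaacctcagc
CCL (chr3:9827432-9827681, plus strand): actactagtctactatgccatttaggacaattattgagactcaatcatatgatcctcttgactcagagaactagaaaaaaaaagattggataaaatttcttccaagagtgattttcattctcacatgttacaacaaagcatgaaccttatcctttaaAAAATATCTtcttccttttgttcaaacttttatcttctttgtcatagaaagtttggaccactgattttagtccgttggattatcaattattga
AT1G15125 (chr1:5204062-5204311, plus strand): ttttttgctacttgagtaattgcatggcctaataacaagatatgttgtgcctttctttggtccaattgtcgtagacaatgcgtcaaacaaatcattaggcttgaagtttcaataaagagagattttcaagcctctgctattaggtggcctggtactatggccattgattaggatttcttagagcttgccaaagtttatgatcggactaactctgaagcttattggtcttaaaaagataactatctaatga
RPL3B (chr1:22723153-22723402, minus strand): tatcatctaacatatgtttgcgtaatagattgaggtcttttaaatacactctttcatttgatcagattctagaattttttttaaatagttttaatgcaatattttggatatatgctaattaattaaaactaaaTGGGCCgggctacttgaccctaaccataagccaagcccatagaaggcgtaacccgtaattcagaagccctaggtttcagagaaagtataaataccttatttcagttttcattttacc
RPS15AA (chr5:24113618-24113867, minus strand): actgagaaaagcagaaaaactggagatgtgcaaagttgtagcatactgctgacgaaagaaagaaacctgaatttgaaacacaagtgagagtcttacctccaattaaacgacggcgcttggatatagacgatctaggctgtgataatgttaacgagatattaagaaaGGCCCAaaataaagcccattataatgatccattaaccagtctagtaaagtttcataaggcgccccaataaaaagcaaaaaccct

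In the RVE2 window there were a CCGAC core and a G-box, and 2 matches to ACGTGG, 1 of which overlaps the G-box. CCL held 1 evening element. AT4G18422, AT1G26790 and AT1G15125 held none of the capitalised motifs, and RPL3B and RPS15AA each held 1 site II element. Across the window from 250 bases before to 50 after the start, on either strand, the evening element was present in 12.3% of the 285 promoters of genes that fell at least 4-fold, in 7.38% of the 244 that rose at least 4-fold and in 3.13% of all 17302 nuclear genes tested. The CCGAC core was in 17.2%, 13% and 16.5% of risers of that size, fallers of that size and all promoters. The I-box GATAAG was present in 26.3% of the promoters of the 4-fold falls, 13.1% of those of the 4-fold rises and 15% of all. Telo-box matches occurred in 47% of 200 cytosolic ribosomal protein promoters and 38.5% of 52 promoters of rRNA processing genes, against 5.57% of all. For site II the shares were 63% and 57.7% in these sets, against 19.8% of all. Shares for the W-box TTGACC were 16% in 4-fold rises, 13% in 4-fold falls and 14.3% in all, and those for the heat shock element GAANNTTC 14.8%, 13.7% and 11.4%.

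**Figure D1:**
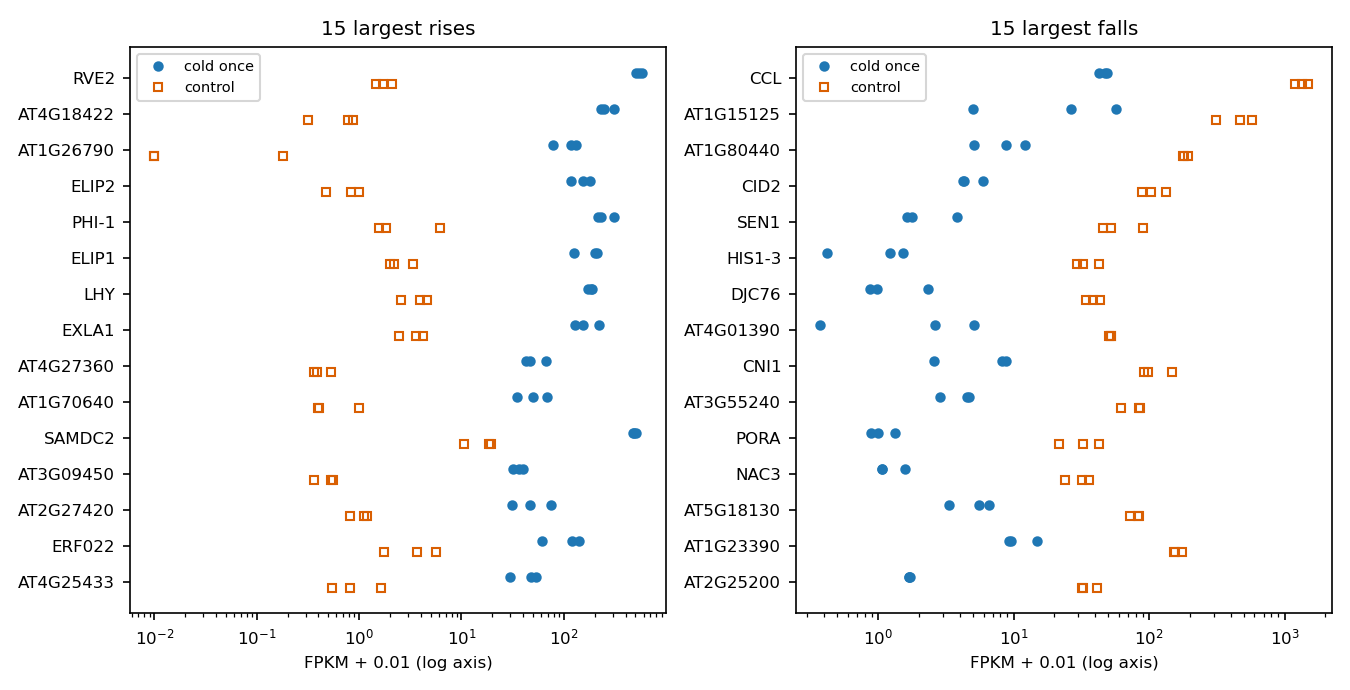
FPKM in each library, plus 0.01 so that zeros can be drawn, on a log axis for the 15 largest rises (left) and the 15 largest falls (right) outside the CBF and COR genes. Filled circles are the 3 cold-once libraries and open squares the 3 control libraries. No gene shown has overlapping groups, which was a condition of its choice.

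The other large rises included genes of light protection and of the clock. ELIP2 (AT4G14690, chromosome 4, 8418242 to 8419325) encodes an early light-induced protein that binds pigments under excess light, and it had 154, 179.5 and 117 FPKM in cold once, against 0.461, 0.823 and 0.988 FPKM in control. Its relative ELIP1 rose by 5.67 ± 0.23 and the clock gene LHY by 5.31 ± 0.17. SAMDC2 (AT5G15950, chromosome 5, 5205869 to 5208036), an S-adenosylmethionine decarboxylase of polyamine synthesis, combined a large change with a high level, at 484, 469.9 and 507 FPKM in cold once and 18.5, 10.6 and 19.3 FPKM in control (4.87 ± 0.21). The cysteine proteinase-like gene AT2G27420 rose by 4.59 ± 0.29 and AT4G25433, encoding a protein with a LysM domain, by 4.49 ± 0.27. AT4G27360, annotated as a dynein light chain, had 42.2, 67.1 and 46.8 FPKM in cold once, against 0.524, 0.374 and 0.355 FPKM in control. The PB1-domain gene AT1G70640 had 34.98, 68.4 and 49.7 FPKM in cold once, against 0.393, 0.391 and 0.997 FPKM in control, and the uncharacterised AT3G09450 had 40.1, 31.7 and 36.3 FPKM in cold once, against 0.519, 0.357 and 0.546 FPKM in control. ELIP2 and these last 3 genes passed the filter through cold once alone. Among the largest falls, CID2 (AT4G14270, chromosome 4, 8218083 to 8219322), which encodes a protein that binds the poly(A)-binding protein, had 4.26, 5.98 and 4.23 FPKM in cold once, against 89.3, 134 and 103 FPKM in control (-4.23 ± 0.18). The linker histone gene HIS1-3 (AT2G18050, chromosome 2, 7845923 to 7847031), known for induction by drought, had 0.41, 1.21 and 1.52 FPKM in cold once and 32.6, 42.6 and 29.4 FPKM in control (-4.16 ± 0.24). CNI1, an ATL-type ubiquitin ligase of carbon and nitrogen balance also called ATL31, fell by 4.02 ± 0.40 to 6.51 ± 3.44 FPKM in cold once, against 113 ± 30.2 FPKM in control. The uncharacterised genes AT3G55240, AT5G18130 and AT2G25200 changed by -3.97 ± 0.19, -3.76 ± 0.21 and -3.75 ± 0.12, and the TRAF-like gene AT4G01390 by -4.08 ± 0.49. No overlap occurred between cold-once and control libraries in any of these genes, as the rule for naming them required; 65.1% of all genes tested had none. AT4G01390 overlaps another annotated gene. The strand setting of the counting is not given, so reads of such pairs cannot be separated, here or for the overlapping genes named later.

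Genes for making ribosomes mostly rose. Of 200 tested cytosolic ribosomal protein genes, 141 rose, 4 fell and 55 were not called, with a median log2 change of 0.53 beside -0.17 for all genes. Their summed level was 32295, 33647 and 32783 FPKM in cold-once libraries, against 19289, 27019 and 23149.6 FPKM in control libraries. The groups did not overlap, and control libraries were the more variable. Changes were small in size: 2 members rose at least 2-fold and none fell that far. RPS15AA (AT5G59850), for a protein of the small subunit, had 127, 124 and 127 FPKM in cold once, against 50.2, 64.5 and 66.8 FPKM in control (1.06 ± 0.12, adjusted p = 0.0005), and RPL3B, for a large subunit protein, rose by 1.31 ± 0.09. RPS9C went the other way (-0.81 ± 0.12). The member with the highest level, emb2386, a large subunit protein gene, stood at 549 ± 16.4 FPKM in cold once and 447 ± 65.7 FPKM in control and was not called (0.30 ± 0.12, adjusted p = 0.069; 0.016 under median-of-ratios scaling). Cytosolic ribosomal proteins are encoded by near-identical gene copies among which reads may be split, so single members are less certain than the sum. Of 49 genes for ribosomal proteins of the plastid, 38 rose and 3 fell (median 0.64). PRPL35 had 442, 455 and 403 FPKM in cold once, against 181, 210.2 and 203 FPKM in control (1.13 ± 0.10). Of 52 genes for rRNA processing and nucleolar proteins, 39 rose and 4 fell (median 0.46); NOP56, a core protein of the particles that methylate rRNA, rose by 0.95 ± 0.11 to 76.5 ± 5.34 FPKM in cold once, against 39.3 ± 4.65 FPKM in control, and EBP2, a ribosome assembly factor, by 0.92 ± 0.10. DEAD/DEAH-box RNA helicases, which unwind RNA, had 22 rises and 5 falls among 51 tested; the plastid-type helicase emb1138 rose by 0.62 ± 0.09. RPS15AA, RPL3B, NOP56 and emb1138 overlap another annotated gene.

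Genes of protein breakdown moved differently from one class to another. F-box proteins, the subunits that choose targets for SCF ubiquitin ligases, had 9 rises and 124 falls among 178 tested of 448 in the table (median -0.59), and still 102 falls and 17 rises under median-of-ratios scaling. The kelch-repeat F-box gene AT1G80440 (chromosome 1, 30241452 to 30243176) had 5.11, 8.72 and 12.1 FPKM in cold once, against 177, 194 and 181 FPKM in control (-4.33 ± 0.25, adjusted p = 4.7e-05). Its family member AT1G23390 had 9.49, 9.25 and 14.8 FPKM in cold once and 152, 175 and 154 FPKM in control (-3.76 ± 0.17). Against this direction, FBS1, a stress-inducible F-box gene, rose by 2.87 ± 0.38 to 91.6 ± 39.5 FPKM in cold once, against 10.99 ± 3.11 FPKM in control, and AUF1, an F-box gene of auxin transport, rose by 2.12 ± 0.15. RING zinc finger genes, the other large class of ubiquitin ligases, had 15 rises and 115 falls among 200 tested (median -0.45; 23 and 96 under median-of-ratios scaling). AT1G26800 fell to 1.59 ± 0.502 FPKM in cold once, against 30.2 ± 5.95 FPKM in control (-3.59 ± 0.19), while ATL80 rose by 1.39 ± 0.35. Of 29 U-box ligases tested, 3 rose and 14 fell. PUB19 had 50.7, 156 and 144 FPKM in cold once, against 7.61, 2.74 and 10.2 FPKM in control (3.89 ± 0.53, adjusted p = 0.001), and its cold-once libraries differed widely among themselves. Cold-once library 1 was also the lowest of its group in FBS1 (46.3, 110 and 118 FPKM) and ATL80 (31.2, 68.2 and 78.8 FPKM). The same held for BMY3, CYP94B3, ERF022 and CBL1, given below. Library 1 was the highest of its group in AUF1 (46.6, 35.1 and 33.8 FPKM), DJA6 and SCL30A. A shared source of this spread was not tested. PUB26 fell by 1.62 ± 0.15. For the 26S proteasome, which degrades the tagged proteins, 14 of 41 subunit genes fell and none rose (median -0.12). The falls made 34.1%, beside 36.1% of all genes tested. Under median-of-ratios scaling 2 rose and 2 fell, so the direction of the proteasome list rests on the scaling. Autophagy, which delivers cytoplasm to the vacuole, had 25 falls and no rise among 34 ATG genes (median -0.69), and 21 falls under median-of-ratios scaling. ATG8F, for the ubiquitin-like protein on autophagosome membranes, had 27.9, 31.5 and 30.6 FPKM in cold once, against 81.3, 97.5 and 83.9 FPKM in control (-1.51 ± 0.10, adjusted p = 7e-05), and ATG8G changed by -1.5 ± 0.14. For DnaJ co-chaperones, which pass substrates to HSP70, there were 19 rises and 25 falls among 70 tested (27.1% and 35.7%). The shares over all genes tested were 20.1% and 36.1%. Median-of-ratios scaling turned the balance to 21 and 15. DJC76, a chloroplast DnaJ gene, fell to 2.31, 0.969 and 0.861 FPKM in the cold-once libraries, against 34.2, 43.3 and 38.2 FPKM in control libraries, whereas DJA6, another chloroplast DnaJ gene, rose by 1.39 ± 0.09. SR splicing factors had 2 rises and 9 falls among 19, and 7 of each under median-of-ratios scaling. SCL33 fell to 6.44 ± 0.599 FPKM in cold once, against 17.3 ± 0.542 FPKM in control, and SCL30A rose by 0.58 ± 0.09. Pentatricopeptide repeat proteins, which process organelle RNA, were mostly not called (157 of 234), while 56.1% of all genes tested were called. They had 42 rises and 35 falls (17.9% and 15%). Median-of-ratios scaling gave 70 rises and 18 falls, and quantile normalization 81 and 14, so this list too depended on the scaling. DJC76 overlaps another annotated gene.

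**Figure D2:**
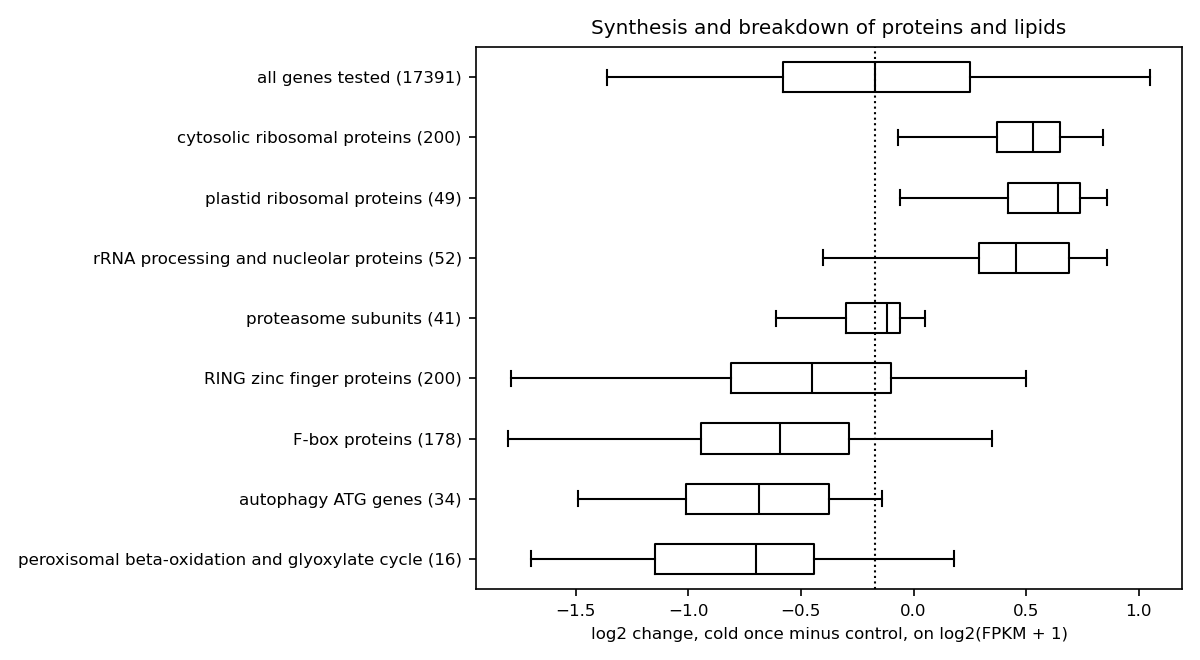
Log2 change of each tested member, cold once minus control on log2(FPKM + 1), for all genes and for 8 lists, with the number tested in brackets. Boxes span the quartiles with the median as a line, whiskers the 5th to 95th percentiles, and the dotted line is the median of all genes (-0.17); ribosomal and nucleolar lists lie to its right and RING, F-box, autophagy and beta-oxidation lists to its left.

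In the chloroplast, antenna genes had more falls than rises, while genes for chlorophyll synthesis and photorespiration had more rises than falls. Among 20 light-harvesting antenna genes, whose products hold chlorophyll around the photosystems, 12 fell and 4 rose (9 and 5 under median-of-ratios scaling, 7 and 4 with no filter on low values, 6 and 3 with the flower marker covariate). CAB3 (AT1G29910, chromosome 1, 10472280 to 10473502), for a major antenna protein of photosystem II, had 1892, 2085 and 1859 FPKM in cold once, against 5197, 6982 and 4608 FPKM in control (-1.5 ± 0.17, adjusted p = 0.00046). It belongs to a set of near-identical genes, so its share of reads is uncertain. The member with the highest level, CAB1, stood at 11312 ± 663 FPKM in cold once and 15337 ± 559.8 FPKM in control, a fall (-0.44 ± 0.12, adjusted p = 0.016) that median-of-ratios scaling did not keep (adjusted p = 0.14). LHCB4.3, for a minor antenna protein, rose by 1.61 ± 0.18 to 113 ± 25.6 FPKM in cold once, against 35.9 ± 5.29 FPKM in control. Nuclear genes for photosystem subunits gave 2 rises and 17 falls among 27. NPQ4, which encodes the PsbS protein that triggers heat dissipation, was among the rises, at 1093, 1243 and 1025 FPKM in cold once, against 547, 480.2 and 544 FPKM in control (1.09 ± 0.11, adjusted p = 0.00033). PSBQ-2, for an oxygen-evolving complex subunit, had 1095 ± 77.6 FPKM in cold once and 2472 ± 488 FPKM in control (-1.16 ± 0.15). Of 22 chlorophyll synthesis genes, 13 rose and 2 fell (median 0.33; 5 and 2 with the flower marker covariate). GUN5, for a subunit of magnesium chelatase, had 774 ± 55.6 FPKM in cold once, against 358 ± 58.2 FPKM in control (1.12 ± 0.14), and the chlorophyll synthase gene G4 rose by 0.88 ± 0.09. Both falls were light-dependent protochlorophyllide reductases: PORA had 0.985, 0.882 and 1.33 FPKM in cold once, against 21.6, 42.8 and 32.5 FPKM in control (-3.96 ± 0.23), and PORB had 133, 109 and 118 FPKM in cold once, against 686, 844 and 699 FPKM in control (-2.62 ± 0.12). The groups overlapped in neither gene, as the rule for naming them required. Photorespiration, the salvage of the product of Rubisco's reaction with oxygen, had 9 rises and 1 fall among 12 (median 0.70). GLDP2, for a subunit of glycine decarboxylase, had 307, 343 and 293 FPKM in cold once, against 108, 74.02 and 105 FPKM in control (1.72 ± 0.16, adjusted p = 0.00022), SHM1 rose by 0.47 ± 0.10, and HPR2, a cytosolic hydroxypyruvate reductase, was the fall (-0.66 ± 0.08). RBCS1A, a Rubisco small subunit gene with near-identical relatives, had 14795 ± 1254 FPKM in cold once, against 7388 ± 629.8 FPKM in control (1.0 ± 0.13), and the carbonic anhydrase gene CA1 rose by 1.01 ± 0.12. Carotenoid genes rose in 10 and fell in 2 of 16. The hydroxylase genes BETA-OHASE 1 and BETA-OHASE 2, which make xanthophylls, rose by 2.55 ± 0.10 and 2.74 ± 0.18, while NPQ1, for violaxanthin de-epoxidase, had 21.01 ± 1.96 FPKM in cold once and 44.9 ± 4.23 FPKM in control (-1.06 ± 0.11). CAB1, PORB, HPR2, CA1, BETA-OHASE 2 and NPQ1 overlap another annotated gene.

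Most starch genes and most genes of dark and sugar starvation fell. Of 36 starch genes, 7 rose and 21 fell (median -0.61; 9 and 20 under median-of-ratios scaling). PHS1 (AT3G29320, chromosome 3, 11252807 to 11257814) and PHS2 (AT3G46970, chromosome 3, 17301394 to 17306633) encode the plastid and cytosolic glucan phosphorylases. PHS1 had 12.4, 10.1 and 10.3 FPKM in cold once, against 113, 90.2 and 113 FPKM in control (-3.15 ± 0.13, adjusted p = 1.2e-05), and PHS2 had 23.99, 13.9 and 10.8 FPKM in cold once, against 153, 128 and 149.6 FPKM in control (-3.14 ± 0.26). BMY3, annotated as a beta-amylase gene, went the other way, with 77.9, 174 and 179 FPKM in cold once, against 10.5, 10.96 and 12.8 FPKM in control (3.45 ± 0.31, adjusted p = 0.00019). The granule-bound starch synthase gene GBSS1 rose by 1.93 ± 0.24. ADG1, for the small subunit of ADP-glucose pyrophosphorylase, had the highest level of the list and was not called (273 ± 20.2 FPKM in cold once, 239 ± 33.1 FPKM in control; adjusted p = 0.22, and 0.032 under median-of-ratios scaling). Among 22 dark and sugar-starvation genes, 15 fell and 2 rose. SEN1, induced by darkness and senescence, had 1.76, 1.62 and 3.79 FPKM in cold once, against 52.02, 90.5 and 46 FPKM in control (-4.23 ± 0.32, adjusted p = 0.0001), and TPS8, a trehalose phosphate synthase-like gene, had 44.5 ± 11.4 FPKM in cold once and 102 ± 6.84 FPKM in control (-1.2 ± 0.17). TPS9 was 1 of the rises (0.91 ± 0.15). Sucrose and raffinose genes rose in 7 and fell in 2 of 13 tested. Within them, 2 galactinol synthase genes, which start raffinose synthesis, had opposite changes. GolS3 had 25.4, 12.8 and 14.7 FPKM in cold once, against 2.23, 1.77 and 3.36 FPKM in control (2.4 ± 0.27, adjusted p = 0.00048), and GolS2 had 5.28, 5.27 and 4.25 FPKM in cold once, against 46.1, 28.1 and 37.9 FPKM in control (-2.67 ± 0.18, adjusted p = 7.3e-05). Peroxisomal beta-oxidation and glyoxylate cycle genes, which turn fatty acids into carbon skeletons, had 13 falls and no rise among 16 (median -0.70), and 10 falls and 1 rise under median-of-ratios scaling. PKT3, the main thiolase gene, had 77.1, 68.2 and 74.1 FPKM in cold once, against 209.6, 206 and 216 FPKM in control (-1.51 ± 0.08, adjusted p = 3.8e-05), and the citrate synthase gene CSY3 fell to 10.5 ± 1.59 FPKM in cold once, against 39.4 ± 2.29 FPKM in control. PHS1, PHS2, BMY3 and CSY3 overlap another annotated gene.

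Nitrogen and sulfate genes changed in opposite balance. Of 20 nitrogen assimilation genes, 11 rose and 6 fell, 7 and 5 of them at least 2-fold. NIA1, for nitrate reductase, had 125, 121 and 97.05 FPKM in cold once, against 20.7, 10.7 and 17.8 FPKM in control (2.77 ± 0.23, adjusted p = 0.00015), and the ammonium transporter gene AMT1;2 rose by 2.88 ± 0.20. The chloroplast glutamine synthetase gene GS2 had 1019.7, 1095 and 969 FPKM in cold once, against 540.3, 498 and 522 FPKM in control (0.98 ± 0.09), whereas GSR 1, for a cytosolic form, had 90.6, 50.4 and 48.2 FPKM in cold once and 258, 209 and 212 FPKM in control (-1.88 ± 0.24). ASN1, an asparagine synthetase gene known from dark-grown plants, fell by 2.32 ± 0.46. Sulfate assimilation gave 3 rises and 15 falls among 22 (median -0.91). The adenosine phosphosulfate reductase gene APR2 rose by 1.84 ± 0.15 to 91.3 ± 17.03 FPKM in cold once, against 24.6 ± 2.66 FPKM in control. LSU1, a gene that responds to low sulfur, had 0.559, 0.276 and 0.055 FPKM in cold once, against 7.25, 7.37 and 5.18 FPKM in control, and passed the filter through control alone. SERAT2;1, for a serine acetyltransferase of cysteine synthesis, changed by -1.67 ± 0.11. Iron homeostasis genes rose in 8 and fell in 3 of 17. FER3, for a ferritin that stores iron in plastids, had 63.2, 99.97 and 84.5 FPKM in cold once, against 13.6, 15.9 and 24.2 FPKM in control (2.16 ± 0.24, adjusted p = 0.00045), and BHLH100, a regulator of iron uptake, rose by 2.46 ± 0.47, with 6.38, 9.54 and 7.26 FPKM in cold once and 0, 2.54 and 0.082 FPKM in control. Among 16 phosphate starvation genes tested, 1 rose and 6 fell (6.25% and 37.5%, beside 20.1% and 36.1% of all genes tested). PAP17, an acid phosphatase gene, fell to 5.45 ± 0.71 FPKM in cold once, against 27.5 ± 2.69 FPKM in control. ASN1, APR2, SERAT2;1 and PAP17 overlap another annotated gene.

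Membrane lipid and wax genes had more rises than falls. Of 23 genes of fatty acid desaturation and membrane lipids, 11 rose and 5 fell. FAD8, a plastid desaturase gene known for its response to cold, had 86.1, 87.9 and 88.5 FPKM in cold once, against 18.9, 18.6 and 20.2 FPKM in control (2.13 ± 0.08, adjusted p = 8e-06), and FAD5, for a palmitate desaturase of chloroplast lipids, had 271, 290.4 and 269 FPKM in cold once, against 54.2, 89.02 and 66.2 FPKM in control (2.0 ± 0.17). PLDDELTA, for a phospholipase D, fell to 10.8 ± 0.959 FPKM in cold once, against 37.3 ± 3.55 FPKM in control. Wax and cutin genes rose in 11 and fell in 7 of 30 (17 and 4 under median-of-ratios scaling). KCS1, which elongates fatty acids for wax, had 69.3, 63.98 and 76.8 FPKM in cold once, against 13.9, 12.2 and 16.1 FPKM in control (2.24 ± 0.12, adjusted p = 3.6e-05), and LTPG1, for a lipid-transfer protein anchored at the cell surface, rose by 1.47 ± 0.08 to 231 ± 8.53 FPKM in cold once, against 82.5 ± 4.81 FPKM in control. Of 39 lipid-transfer protein genes tested, 4 rose and 5 fell, turned to 6 and 4 by median-of-ratios scaling. AT5G52160 had 0.079, 0 and 0 FPKM in cold once, against 3.28, 27.4 and 16.1 FPKM in control. AT5G62080 was at 0 in all 3 cold-once libraries, against 2.2, 23.3 and 15.5 FPKM in control. These 2 genes passed the filter through control alone. Of the 14 flower markers 9 were tested, of which 3 fell and 6 were not called, and their summed levels, given above, overlapped between the groups. Each cold-once library had 2 or 3 of the 14 at 0 and each control library 0 to 2. SEP3, a floral MADS-box gene among the flower markers that fell, had 0.312, 0.883 and 0.541 FPKM in cold once and 2.16, 6.32 and 11.3 FPKM in control. SEP3 likewise passed the filter through control alone, which favours a difference. In the four-cycle libraries AT5G52160 had 0, 15.96 and 0 FPKM and AT5G62080 had 0, 11.86 and 0 FPKM. The 14 flower markers summed to 17.3, 56.4 and 16.7 FPKM in those libraries. Beyond the flower marker covariate fit over all genes, the part of flower tissue in the differences of AT5G52160 and AT5G62080 was not tested. FAD8 and LTPG1 overlap another annotated gene.

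Among specialised metabolites, most phenylpropanoid genes rose and most glucosinolate genes fell. Of 20 phenylpropanoid and lignin genes, 12 rose and 2 fell (median 0.71), and under median-of-ratios scaling 13 rose and none fell. PAL2, for the enzyme that opens the pathway, had 162, 214 and 225 FPKM in cold once, against 32.96, 35.99 and 33.6 FPKM in control (2.5 ± 0.14, adjusted p = 3.5e-05). The 4-coumarate ligase gene 4CL3 had 27.8, 41.4 and 28.6 FPKM in cold once, against 2.96, 4.3 and 4.87 FPKM in control (2.73 ± 0.20). CCoAOMT1, for a methyltransferase of lignin precursors, rose by 0.66 ± 0.09. Glucosinolates are the sulfur-rich defence compounds of crucifers. Of 21 genes for the aliphatic kind, 1 rose and 15 fell (median -0.84), with 12 falls under median-of-ratios scaling and 3 with the flower marker covariate. MAM1, which extends methionine chains, had 74.05, 106 and 104 FPKM in cold once, against 323, 233 and 325 FPKM in control (-1.62 ± 0.19, adjusted p = 0.00052), and BCAT4, for the aminotransferase before it, had 67.6 ± 14.3 FPKM in cold once and 225 ± 28.2 FPKM in control (-1.73 ± 0.17). Of 14 genes for the indole kind, 1 rose and 9 fell (3 falls with that covariate). IGMT1, an indole glucosinolate methyltransferase gene, fell to 3.19 ± 2.28 FPKM in cold once, against 28.9 ± 9.05 FPKM in control (-2.94 ± 0.39), while its close copy IGMT2 rose by 1.0 ± 0.28; reads of these neighbours may be split between them. Cytochromes P450, a family of oxidases, had 15 rises and 55 falls among 112 tested. CYP707A1, for an enzyme of abscisic acid breakdown, rose by 2.77 ± 0.20 and CYP94B3, which oxidises jasmonoyl-isoleucine, by 4.14 ± 1.07 (adjusted p = 0.015). CYP94B3 differed widely among the libraries of both groups, with 8.66, 100.4 and 78.5 FPKM in cold once and 0.218, 0.337 and 7.65 FPKM in control. CYP71B4 fell to 7.73 ± 0.913 FPKM in cold once, against 58.2 ± 7.13 FPKM in control. UDP-glycosyltransferases rose in 14 and fell in 29 of 56: UGT78D2, which adds glucose to flavonoids, rose by 2.41 ± 0.15, and UGT72E1, which acts on lignin precursors, had 8.13 ± 2.62 FPKM in cold once and 71.4 ± 6.48 FPKM in control (-3.03 ± 0.22). Glutathione S-transferases gave 7 rises and 15 falls among 34 (20.6% and 44.1%, beside 20.1% and 36.1% of all genes tested). ERD9 rose by 3.26 ± 0.25 to 196 ± 31.3 FPKM in cold once, against 20.2 ± 7.08 FPKM in control, and GSTF9, the most abundant member by FPKM, had 489, 485 and 684 FPKM in cold once, against 1339, 1790.3 and 1491 FPKM in control (-1.49 ± 0.17, adjusted p = 0.00055). BCAT4 and ERD9 overlap another annotated gene.

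Cytokinin response regulators had the highest list median. Of 8 tested type-A ARR genes, the rapidly induced repressors of cytokinin signalling, 6 rose, none fell and 2 were not called (median 2.45). ARR7 (AT1G19050, chromosome 1, 6577833 to 6579314) had 115, 121 and 98.6 FPKM in cold once, against 8.04, 12.7 and 7.87 FPKM in control (3.44 ± 0.18, adjusted p = 3.3e-05). ARR6 had 22.5, 23.3 and 19.5 FPKM in cold once, against 0.861, 1.02 and 1 FPKM in control (3.53 ± 0.10), and ARR4, at 109.8 ± 1.58 FPKM in cold once and 24.3 ± 1.02 FPKM in control, rose by 2.13 ± 0.08. The ethylene list had 11 falls and no rise among 16 (median -0.75; 10 falls under median-of-ratios scaling). EBF2, an F-box gene that removes the transcription factors of ethylene signalling, had 10.9, 6.07 and 8.32 FPKM in cold once, against 62.3, 52.2 and 50.03 FPKM in control (-2.59 ± 0.19, adjusted p = 0.00011), and ETR2, for an ethylene receptor, changed by -1.85 ± 0.13. In the gibberellin list 4 rose and 9 fell of 17. The biosynthesis gene GA3OX1 rose by 1.64 ± 0.20, while GID1C, for a gibberellin receptor, and GAI, for a DELLA growth repressor, had 3.62 ± 0.193 and 4.24 ± 0.323 FPKM in cold once, against 17.4 ± 1.09 and 16.4 ± 2.25 FPKM in control. RGA1, the DELLA gene with the highest level, rose by 0.43 ± 0.13. Brassinosteroid genes rose in 2 and fell in 11 of 20; DET2, for a steroid reductase, fell to 3.97 ± 0.641 FPKM in cold once, against 13.5 ± 0.624 FPKM in control. Auxin response genes were mixed. Aux/IAA repressors had 6 rises and 5 falls among 22, with AXR3 at 40.9, 52.6 and 45.7 FPKM in cold once, against 14.8, 12.7 and 10.3 FPKM in control (1.81 ± 0.15), and IAA29 at 1.68 ± 0.597 FPKM in cold once and 10.5 ± 5.21 FPKM in control (-2.02 ± 0.37). SAUR genes, small auxin-responsive growth genes, had 6 rises and 20 falls among 41; AT2G35290 rose by 4.0 ± 0.36. Abscisic acid receptors and their phosphatases gave 4 rises and 7 falls among 16 (25% and 43.8%, beside 20.1% and 36.1% of all genes tested). HAB1, a phosphatase that holds the pathway off, rose by 1.26 ± 0.16 and its relative ABI1 had 43.2 ± 2.99 FPKM in cold once and 66.4 ± 8.65 FPKM in control (-0.60 ± 0.12). ARR6, EBF2, DET2 and ABI1 overlap another annotated gene.

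Calls in transcription factor families are set beside the shares over all genes tested, 20.1% higher and 36.1% lower, and differences between families were not tested. NAC factors had 7 rises and 28 falls among 47 tested (median -0.71; 12 and 26 under median-of-ratios scaling). NAC6 (AT5G39610, chromosome 5, 15858398 to 15859911), a positive regulator of leaf senescence also called ORE1, had 3.59, 3.76 and 3.63 FPKM in cold once, against 62.1, 50.1 and 49.4 FPKM in control (-3.55 ± 0.11, adjusted p = 6.1e-06). NAC3 had 1.56, 1.06 and 1.06 FPKM in cold once, against 31.9, 35.9 and 23.8 FPKM in control (-3.81 ± 0.17). Among 11 tested senescence markers, which include NAC6, 7 fell and 1 rose (63.6% and 9.09%). The summed level of all 12 markers overlapped between the groups. It was 764, 332 and 538 FPKM in cold once and 757, 697 and 764 FPKM in control. B-box and CONSTANS-like factors, which act in light signalling and flowering, had 13 rises and 8 falls among 26, of which 12 and 6 were at least 2-fold. BBX31 had 26.6, 39.6 and 30.2 FPKM in cold once, against 0.634, 0.86 and 0.902 FPKM in control, having passed the filter through cold once alone. BBX29 had 114, 129 and 119.8 FPKM in cold once, against 6.71, 7.53 and 8.17 FPKM in control (3.85 ± 0.10, adjusted p = 3.8e-06), and BBX17 fell to 1.85 ± 0.534 FPKM in cold once, against 14.8 ± 3.24 FPKM in control. COL4, with the highest level, was not called (299 ± 27.8 FPKM in cold once, 299 ± 35.99 FPKM in control), and its groups overlapped. Dof factors rose in 8 and fell in 4 of 26 (5 of each without cold-once library 1); CDF3, a cycling Dof factor, had 116 ± 3.58 FPKM in cold once, against 39.2 ± 2.52 FPKM in control (1.54 ± 0.08). ERF and DREB factors other than the CBF genes had 20 rises and 29 falls among 74 (26 of each under median-of-ratios scaling). ERF022 had 61.4, 121 and 140.2 FPKM in cold once, against 1.76, 3.64 and 5.64 FPKM in control (4.54 ± 0.40, adjusted p = 0.00018), and DREB26 rose by 3.58 ± 0.15. EBP, also named RAP2.3, fell to 106 ± 16.1 FPKM in cold once, against 422 ± 148 FPKM in control, and ORA47, a jasmonate-responsive factor, to 3.87 ± 2.86 FPKM in cold once, against 33.4 ± 3.92 FPKM in control. WRKY factors, known from defence, were mostly not called (31 of 48), with 6 rises and 11 falls (8 and 10 under median-of-ratios scaling). WRKY48 rose by 2.97 ± 0.23, and WRKY26 had 2.56 ± 1.22 FPKM in cold once and 29.4 ± 2.14 FPKM in control (-3.16 ± 0.26). WRKY70, the most abundant by FPKM, varied widely within both groups and was not called (235, 76.3 and 159.8 FPKM in cold once, 264, 126 and 209 FPKM in control). bHLH factors gave 15 rises and 31 falls among 76 (19.7% and 40.8%), near the shares over all genes. BHLH137 rose by 3.19 ± 0.18, and PIF4, which promotes growth in warmth and shade, had 20.3, 17.8 and 17.5 FPKM in cold once, against 86.6, 69.03 and 75.8 FPKM in control (-2.0 ± 0.11, adjusted p = 3.9e-05). Of 51 MYB factors tested, 11 rose and 18 fell (21.6% and 35.3%), also near those shares, and quantile normalization turned this to 17 and 13. Among them was MYB111, a flavonol regulator, which rose by 1.67 ± 0.30. GATA factors gave 5 rises and 12 falls among 24 (7 and 8 under median-of-ratios scaling, 7 and 6 under quantile normalization, which turned the balance). CGA1, a cytokinin-responsive regulator of chloroplast development, rose by 2.41 ± 0.12 to 16.2 ± 0.982 FPKM in cold once, against 2.23 ± 0.402 FPKM in control. Heat shock factors had 2 rises and 5 falls among 14 (2 and 3 under median-of-ratios scaling). Homeobox factors had 8 rises and 23 falls among 59, but 12 and 15 under median-of-ratios scaling and 12 and 14 under quantile normalization. BBX17 and ORA47 overlap another annotated gene.

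**Figure D3:**
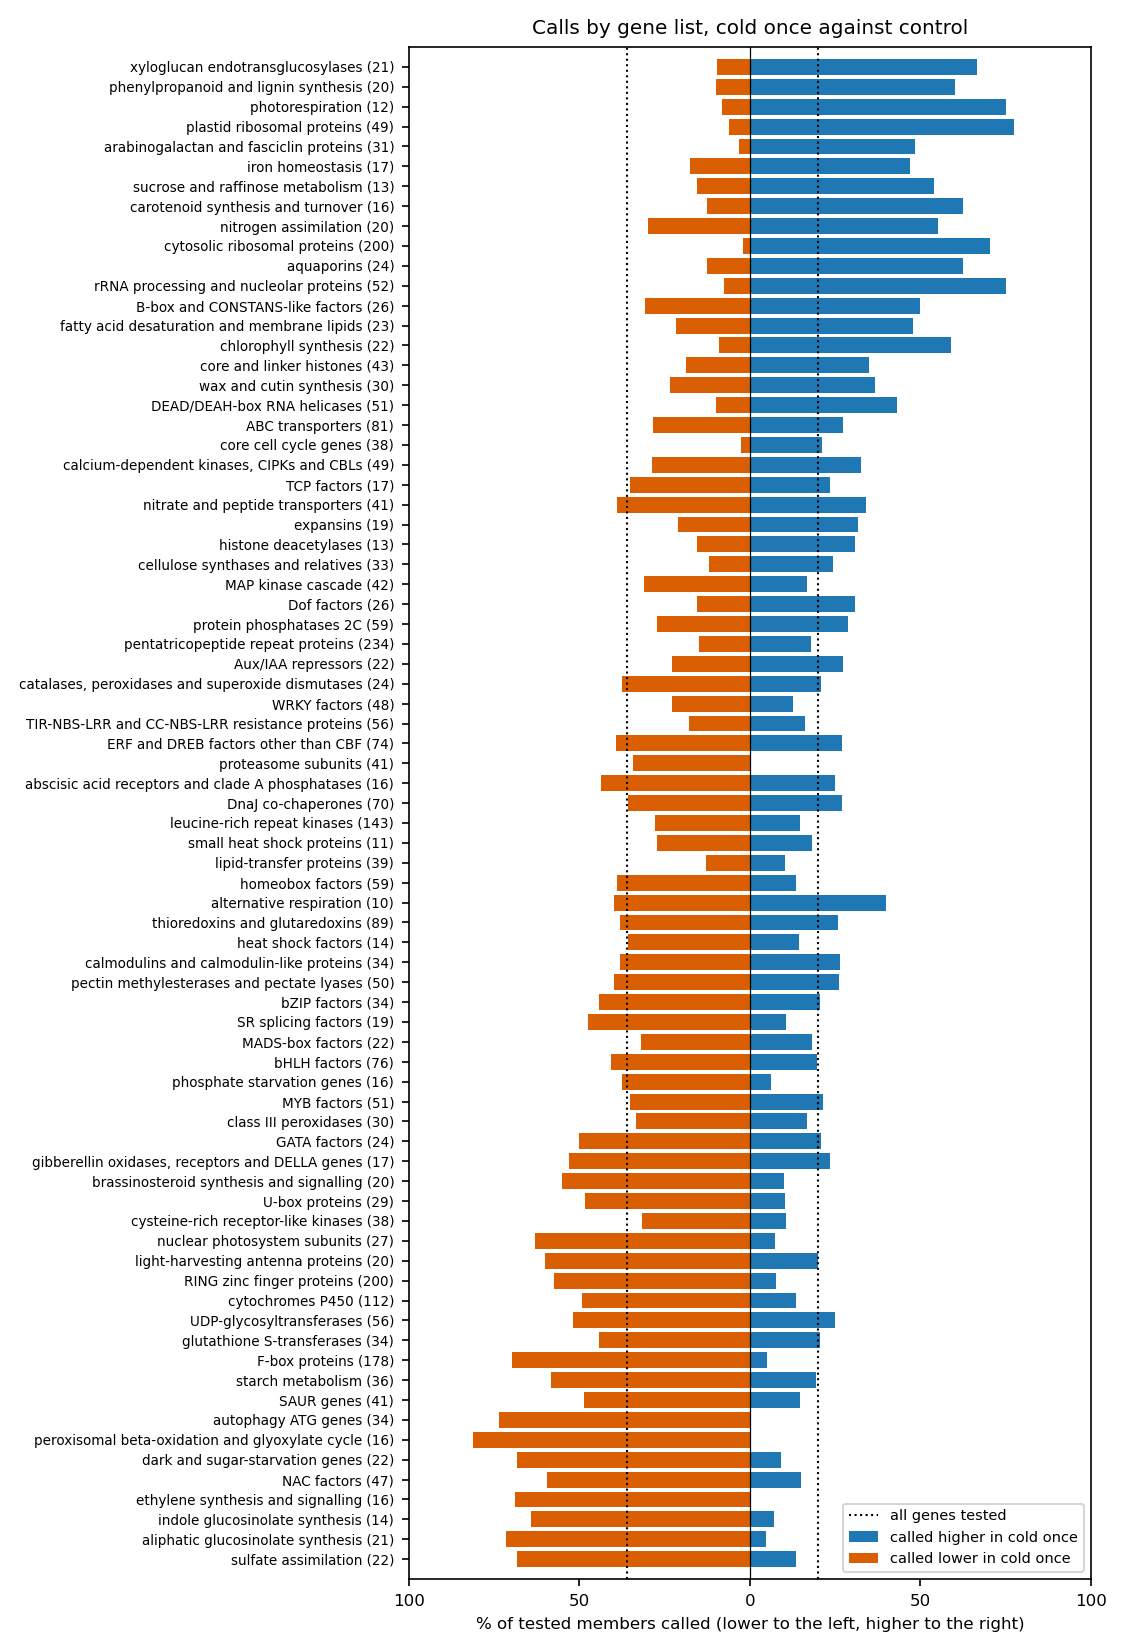
Share of tested members called higher (right, blue) and lower (left, orange) in cold once for the 76 function lists with at least 10 tested members, ordered by median log2 change; the number tested is in brackets. Dotted lines mark the shares over all 17391 genes, 20.1% higher and 36.1% lower.

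Signalling families had calls in both directions, read here beside the 20.1% of all genes tested that were higher and the 36.1% that were lower. Calcium-dependent kinases, CIPKs and CBLs had 16 rises and 14 falls among 49 (32.7% and 28.6%). CBL1, a calcium sensor known for its part in cold and drought responses, had 26.3, 67.9 and 72.4 FPKM in cold once, against 7.39, 7.01 and 7.3 FPKM in control (2.65 ± 0.36, adjusted p = 0.00094), and CIPK7 had 194 ± 31.1 FPKM in cold once and 91.4 ± 9.12 FPKM in control (1.07 ± 0.14). CIPK21 went the other way, with 10.7, 6.14 and 9.01 FPKM in cold once, against 48.9, 56.6 and 49.9 FPKM in control (-2.48 ± 0.18). Calmodulins and calmodulin-like proteins gave 9 rises and 13 falls among 34, or 26.5% and 38.2% (9 and 8 under median-of-ratios scaling, which turned the balance). CML38 rose by 2.37 ± 0.45 to 270.2 ± 137 FPKM in cold once, against 46.8 ± 14.2 FPKM in control, and CML44 changed by -2.27 ± 0.17. In the MAP kinase cascade 7 rose and 13 fell of 42 (16.7% and 31%), a balance that median-of-ratios scaling turned (15 and 11). MAPKKK14 had 34.2, 86.7 and 75.2 FPKM in cold once, against 4.56, 4.95 and 8.15 FPKM in control (3.2 ± 0.36), and MPK7 had 3.82, 4.27 and 3.58 FPKM in cold once, against 18.2, 19.3 and 20.3 FPKM in control (-2.05 ± 0.09, adjusted p = 1.8e-05). MPK3, a stress-activated kinase gene, was not called (123.2 ± 50.3 FPKM in cold once, 197 ± 25.1 FPKM in control). Most leucine-rich repeat kinases (82 of 143), cysteine-rich receptor-like kinases (22 of 38) and NBS-LRR resistance genes (37 of 56) were not called. Over all genes tested 56.1% were called. Leucine-rich repeat kinases had 21 rises and 40 falls, turned to 30 and 26 by median-of-ratios scaling. Cysteine-rich receptor-like kinases had 4 and 12 (5 and 9 under that scaling). NBS-LRR genes had 9 and 10, turned to 10 and 7. CRK5 changed by -1.52 ± 0.37 and AT2G34930, for a leucine-rich repeat protein, rose by 2.83 ± 0.32. CBL1, MPK3 and AT2G34930 overlap another annotated gene.

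Cell wall genes included some of the steepest rises. Of 21 xyloglucan endotransglucosylases (XTH), which cut and rejoin wall xyloglucan, 14 rose and 2 fell (median 0.87), 9 of the rises at least 2-fold. XTH18 (AT4G30280, chromosome 4, 14825757 to 14827211) had 41.8, 42.1 and 56.7 FPKM in cold once, against 1.36, 1.26 and 1.35 FPKM in control (4.35 ± 0.13, adjusted p = 6e-06). TCH4, a touch-induced XTH gene, had 387, 403 and 583 FPKM in cold once, against 33.5, 48.5 and 57.8 FPKM in control (3.28 ± 0.23). The list's summed level was 1764, 1560.3 and 1775 FPKM in cold once, against 560.3, 707 and 582 FPKM in control. The EXORDIUM family, extracellular proteins tied to growth and carbon status, had 5 rises among 6 tested and no fall. PHI-1 (AT1G35140, chromosome 1, 12851983 to 12853235), annotated as EXORDIUM LIKE 1, had 232, 217 and 309 FPKM in cold once, against 1.82, 1.55 and 6.22 FPKM in control (6.07 ± 0.39), and EXO rose by 2.75 ± 0.32. Expansins, which loosen walls, gave 6 rises and 4 falls among 19 (4 and 5, 3 and 5, and 3 and 3 without cold-once libraries 1, 2 and 3). EXLA1 (AT3G45970, chromosome 3, 16896166 to 16897308), an expansin-like gene, had 219, 129.6 and 155 FPKM in cold once, against 2.45, 3.6 and 4.22 FPKM in control (5.24 ± 0.23), and EXLA2 rose by 1.95 ± 0.23. EXPA8, an alpha-expansin gene, had 2.47, 4.27 and 2.08 FPKM in cold once, against 32.2, 76.6 and 32.8 FPKM in control (-3.53 ± 0.36, adjusted p = 0.00033). Arabinogalactan and fasciclin proteins, glycoproteins of the cell surface, had 15 rises and 1 fall among 31. AGP17 had 81.8, 62.4 and 63.5 FPKM in cold once, against 5.91, 6.05 and 6.46 FPKM in control (3.29 ± 0.12), AGP15, the most abundant by FPKM, had 456 ± 45.96 FPKM in cold once and 144 ± 10.7 FPKM in control (1.66 ± 0.11), and AGP16 was the fall (-0.72 ± 0.23), which median-of-ratios scaling did not keep (adjusted p = 0.091). Pectin methylesterases and pectate lyases gave 13 rises and 20 falls among 50 (26% and 40%, beside 20.1% and 36.1% of all genes tested). Median-of-ratios scaling turned this to 17 and 14. Cellulose synthases and relatives were mostly not called (21 of 33), with 8 rises and 4 falls (10 and 2 under median-of-ratios scaling). CSLB04 rose by 1.51 ± 0.21 and CEV1, a primary wall cellulose synthase gene, was not called (-0.30 ± 0.13). Class III peroxidases had 5 rises and 10 falls among 30 (16.7% and 33.3%), near the shares over all genes. Median-of-ratios scaling turned the balance to 6 and 5. PRXR1 had 537, 576 and 679 FPKM in cold once, against 2436, 2262 and 2116 FPKM in control (-1.93 ± 0.12, adjusted p = 5.8e-05), and PER31 rose by 1.92 ± 0.25. EXLA1, AGP16 and CEV1 overlap another annotated gene.

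Among chromatin and cell cycle genes, changes of at least 2-fold, higher and lower, numbered 0 and 0 among cell cycle genes and 1 and 3 among histones. Histone deacetylases had 1 and 2 among 13 tested, beside 5.39% and 9.91% of all genes. Of 38 core cell cycle genes tested, 8 rose, 1 fell and 29 were not called. MCM3, a subunit of the helicase that opens DNA for replication, rose by 0.66 ± 0.12. Core and linker histones rose in 15 and fell in 8 of 43, with HTA6, a histone H2A gene, at 142 ± 9.25 FPKM in cold once, against 71 ± 11.4 FPKM in control (1.0 ± 0.13), beside the fall of HIS1-3 given above. Among histone deacetylases 4 rose and 2 fell of 13. HDT4, for a plant-specific HD2-type deacetylase, had 30.5 ± 1.83 FPKM in cold once and 14.96 ± 4.05 FPKM in control (1.01 ± 0.18), and HDA2 had 1.71, 1.21 and 1.28 FPKM in cold once, against 11.7, 11.5 and 11.6 FPKM in control (-2.4 ± 0.11, adjusted p = 1.8e-05). HDA2 overlaps another annotated gene.

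Catalases, which break down hydrogen peroxide in peroxisomes, went in opposite directions. CAT2 (AT4G35090, chromosome 4, 16700312 to 16703504), the leaf form tied to photorespiration, had 863, 1007 and 954 FPKM in cold once, against 227, 151 and 225 FPKM in control (2.24 ± 0.17, adjusted p = 0.00011). CAT3 (AT1G20620, chromosome 1, 7142972 to 7146540) had 153, 114 and 169 FPKM in cold once, against 1880.1, 1885 and 1975 FPKM in control (-3.73 ± 0.15, adjusted p = 1.2e-05), and CAT1 had 9.77, 7.11 and 7.93 FPKM in cold once, against 45.1, 29.1 and 47.5 FPKM in control (-2.14 ± 0.20). CAT2 was thus the catalase gene with the highest level in cold once and CAT3 the one in control. Over the whole list of catalases, peroxidases and superoxide dismutases, 5 rose and 9 fell of 24 (20.8% and 37.5%). These shares were near the 20.1% and 36.1% of all genes tested. Median-of-ratios scaling gave 8 of each. Thioredoxins and glutaredoxins gave 23 rises and 34 falls among 89 (25.8% and 38.2%), and 26 and 25 under median-of-ratios scaling. GRXS4 and GRXS8, neighbouring and similar glutaredoxin genes among which reads may be split, passed the filter through cold once alone. GRXS4 had 14.1, 11.3 and 11.2 FPKM in cold once, against 0, 0.213 and 0 FPKM in control, and GRXS8 had 11.6, 11.01 and 9.99 FPKM in cold once, against 0.149, 0.106 and 0.251 FPKM in control. WCRKC1, a thioredoxin-like gene, fell to 5.53 ± 0.193 FPKM in cold once, against 42.1 ± 11.6 FPKM in control. In alternative respiration, NDA1, for a mitochondrial NADH dehydrogenase that bypasses complex I, had 134, 148 and 149 FPKM in cold once, against 53.2, 41.2 and 46.8 FPKM in control (1.6 ± 0.11), while its relative NDA2 had 6.4 ± 2.6 FPKM in cold once and 20.1 ± 2.22 FPKM in control (-1.57 ± 0.24) and the alternative oxidase gene AOX1A changed by -0.65 ± 0.15. CAT2 overlaps another annotated gene.

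Aquaporin genes were mostly among the rises, and sugar transporters were split. Of 24 aquaporin genes tested, 15 rose and 3 fell (median 0.51). PIP2A, a plasma membrane aquaporin gene, had 741, 1064 and 969 FPKM in cold once, against 350.3, 357 and 377 FPKM in control (1.34 ± 0.14, adjusted p = 0.0004), GAMMA-TIP, a vacuolar one, rose by 1.49 ± 0.19, and RD28 had 95.3 ± 20.6 FPKM in cold once, against 14.5 ± 2.93 FPKM in control (2.63 ± 0.20). SWEET sugar transporters rose in 4 and fell in 3 of 9. SWEET2, a vacuolar form, had 46.04, 58.96 and 57.4 FPKM in cold once, against 3.1, 3.14 and 3.77 FPKM in control (3.66 ± 0.12, adjusted p = 7.1e-06). SWEET12, which exports sucrose for phloem loading, had 9.46, 6.2 and 14.6 FPKM in cold once, against 33.9, 28.7 and 32.6 FPKM in control (-1.63 ± 0.26), and its partner SWEET11 rose by 0.37 ± 0.09. ABC transporters had 22 rises and 23 falls among 81 (27.2% and 28.4%, beside 20.1% and 36.1% of all genes tested). Median-of-ratios scaling turned the balance to 33 and 19. ABCG22, which acts in stomatal water loss, rose by 1.98 ± 0.21, and PEN3, which acts in defence at the cell surface, had 105 ± 50.1 FPKM in cold once and 323 ± 47.6 FPKM in control (-1.74 ± 0.38, adjusted p = 0.007). Nitrate and peptide transporters gave 14 rises and 16 falls among 41, turned to 17 and 13 by median-of-ratios scaling; NPF6.4 rose by 1.85 ± 0.16 and NPF1.2 changed by -1.69 ± 0.24.

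**Figure D4:**
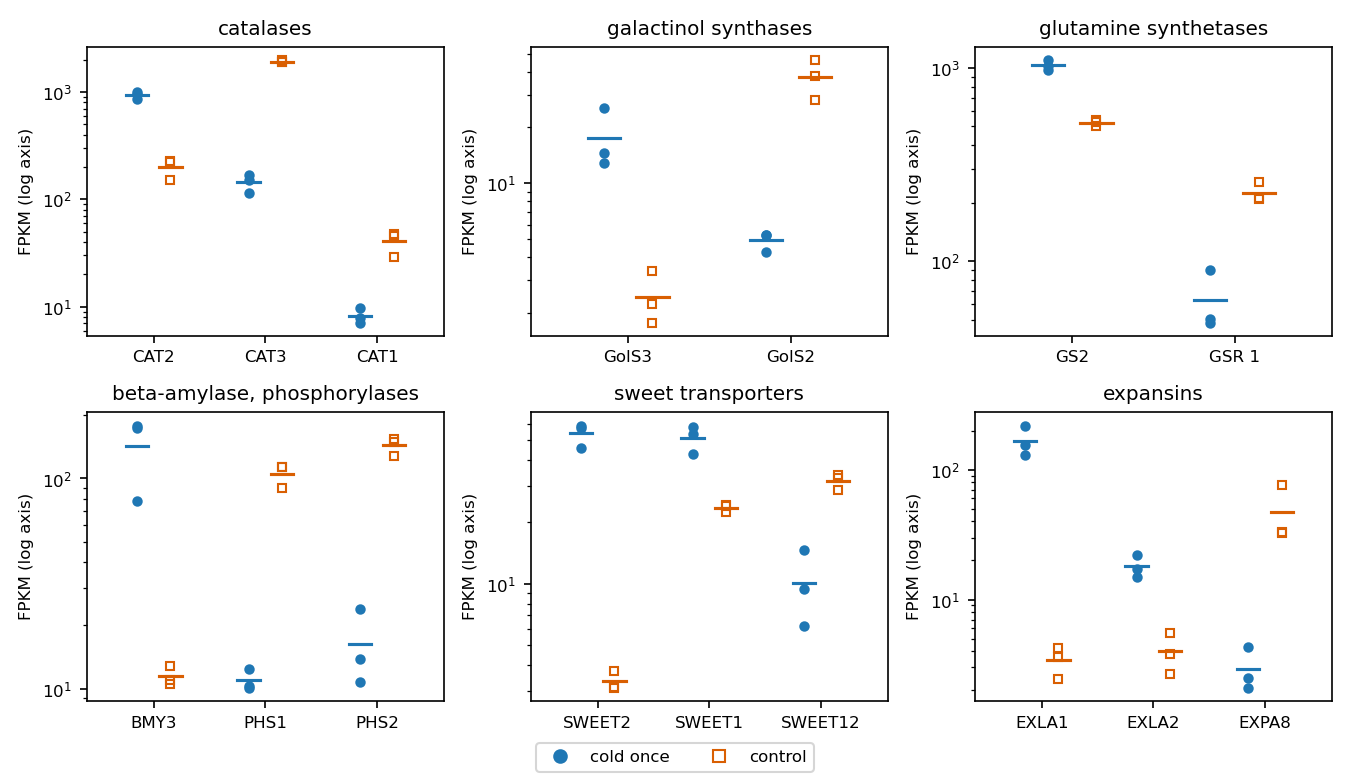
FPKM in each library on a log axis for members of 6 groups of related genes, with filled circles for cold once, open squares for control and short lines for group means (n = 3 libraries each). In each panel at least 1 member was higher and at least 1 lower in cold once, with no overlap between the groups. Apart from GS2, its list's most abundant member, the genes were picked as largest rises and falls with no overlap. Both features thus follow from the choice, and 65.1% of all genes tested had no overlap.

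Calls among other tissue markers are read beside the 20.1% of all genes tested that were higher and the 36.1% that were lower. Of 9 xylem and secondary wall markers tested none was called, and of 8 phloem markers 2 rose (25%) and none fell. Guard cell and stomatal lineage markers rose in 3 and fell in 2 of 11 (27.3% and 18.2%). Median-of-ratios scaling and quantile normalization alike gave 4 and 0. The protein kinase gene OST1, which closes stomata under abscisic acid, rose by 0.65 ± 0.12 to 12.1 ± 1.82 FPKM in cold once, against 7.33 ± 0.622 FPKM in control. Of 10 root markers 2 were tested. NRT2:1, a nitrate transporter gene named after its values were seen, passed the filter through cold once alone. It had 1.39, 1.06 and 1.49 FPKM in cold once and 0.066, 0.236 and 0.112 FPKM in control. The most abundant, PYK10, varied among libraries (30.9, 17.6 and 62.1 FPKM in cold once, 62.8, 36.9 and 25.1 FPKM in control) and was not called. PYK10 overlaps another annotated gene.

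How far the single-cycle state differed from that of plants with 4 cycles was tested in a fit to all 9 libraries. Few genes were called: 226 of 17740 tested (1.27%), 95 higher in cold once than after 4 cycles (0.536%) and 131 lower (0.738%). An unadjusted p under 0.05 was found for 3513 genes, and a fit with the replicate number as a block called 704. The count was 17 without cold-once library 3, 54.4% of 226 without cold-once library 2, 39, 131 and 112 without the four-cycle libraries 1, 2 and 3, and 101 and 84 without control libraries 1 and 3. It was 368 under median-of-ratios scaling. Of the 385 genes named by the rule for large changes and for each list, 24 were called, 16 higher and 8 lower in cold once than after 4 cycles. In all 24 the four-cycle mean lay between the cold-once and the control mean; these genes had been picked for the size of their change in cold once. Several belonged to the cell wall. EXLA1 had 219, 129.6 and 155 FPKM in cold once, against 17.7, 32.8 and 39.7 FPKM after 4 cycles (log2 difference 2.48 ± 0.30, adjusted p = 0.012), EXPA8 had 2.47, 4.27 and 2.08 FPKM in cold once, against 18.7, 22.04 and 25.4 FPKM after 4 cycles (-2.58 ± 0.33, adjusted p = 0.013), and PHI-1, AGP17 and XTH18 were higher in cold once by 1.89 ± 0.35, 1.16 ± 0.14 and 1.21 ± 0.13. ELIP2 was higher by 1.55 ± 0.19 and 4CL3 by 1.64 ± 0.18. NAC6 was lower in cold once by 1.37 ± 0.11 (3.66 ± 0.088 FPKM in cold once, 11.1 ± 0.663 FPKM after 4 cycles), and CCL changed by -1.0 ± 0.11. RVE2, with 541 ± 31.6 FPKM in cold once and 611 ± 66.8 FPKM after 4 cycles, was not called (-0.17 ± 0.12, adjusted p = 0.46), nor was CAT3 (-0.28 ± 0.15, adjusted p = 0.32). Both comparisons use the same cold-once libraries, and the four-cycle plants were sampled on day 4.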

How the data were processed

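RNA libraries of 3 cold-once, 3 four-cycle and 3 control samples were deposited by the authors as 1 table of FPKM values per gene, with no pooled columns. The submitters' processing notes name TopHat, Cufflinks and Cuffdiff without versions, and the genome build and strand setting are not given in the sources used here. Of 25099 loci with an entry in RefSeq's TAIR10.1 annotation, 25094 (99.98%) had the same start and end, and symbols and promoters were taken from it. The implied depths came from the steps between low values. At these depths 99.45% to 99.49% of all values with a gene length, zeros included, lay within 0.01 of a whole read. Genes near 1 FPKM had 32 reads at the median (17.7% counting error), and 3 reads corresponded to 0.14 to 0.15 FPKM for a gene of 1 kb in the 6 libraries compared.

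Tests used limma 3.58.1 in R 4.3.3 on log2(FPKM + 1) with a mean trend in the variance and Benjamini-Hochberg adjustment over all genes tested, 2-sided. Of the genes tested, 149 passed the filter only through cold-once libraries and 326 only through control libraries. The fit was also run on simulated reads in which few genes changed, with rises and falls in equal number. The real data differ in both respects, so that run does not bear on the scaling. Gene lists (80 by function and 9 of tissue markers) were matched by symbol or annotation, and 56 listed symbols had no match. The members and lists were chosen with earlier results of these data known, and matches in many lists were corrected by gene description (loci sharing a symbol, families found by UniProt description), in the RING, pentatricopeptide and cellulose synthase lists after values were seen. Genes named were drawn from the 15 largest rises and falls, up to 2 largest rises and falls of each list, and each list's most abundant member. Apart from the last, each had to be called, reach a mean of 5 FPKM and have no overlap between groups. This rule gave 385 genes, and the text names 188 genes chosen by hand, so members picked by the rule are left out. NRT2:1 is named from outside the rule. Alternatives were other scalings, pseudocounts, filters, fits, a replicate block, a flower marker covariate and each library left out, with a voom fit to recovered reads added after seeing the data.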

Additional observations from a re-analysis of the deposited data

How the results depend on the processing

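The counts of genes called in cold once against control kept within 1.5 times of the main ones under all alternatives but the flower marker covariate, which gave 5445 calls, 2068 higher and 3377 lower; the cause was not tested. With each library left out in turn the calls ranged from 7718 to 9295, the rises from 2722 to 3369 and the falls from 4798 to 5926. The 704 genes called between cold once and 4 cycles with a replicate block, and the 368 under median-of-ratios scaling, stand beside 226 without them, and leaving out single libraries gave 17 to 208; the cause was not tested. A replicate block gave 10007 calls against control (3534 higher, 6473 lower). Samples with the same number had correlations of deviations of 0.25, 0.23 and 0.04, too low in the last pair to pair the samples, although each correlated best with its own number, a hint from the data and not the design. A voom fit to recovered reads gave 9755 calls. Of the 188 genes named, 167 gave the same verdict under every alternative run, 14 lost the call with the flower marker covariate and none reversed. Depth limits single genes near 1 FPKM, where 32 reads is typical.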
